A study of Mus musculus with 24 samples.

Results

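H3K27ac, the acetyl mark of active promoters and enhancers, was compared between the liver of tet-Myc/YAP mice and the liver of wild-type mice, using the list of acetylated regions deposited for each. Every region of both lists was used, 17821 in wild-type and 21854 in tet-Myc/YAP, together 39675 of the 175341 regions in the 9 histone mark lists of the series. All mice carried R26-rtTA, a doxycycline-dependent transactivator expressed from the Rosa26 locus. Wild-type mice had no further transgene, whereas tet-Myc/YAP mice (R26-rtTA;tet-Myc;tet-YAP) also carried an inducible Myc and an inducible YAP, the latter per the methods a Col1A1-YAP S127A transgene encoding an activated form of the protein. The transgenic mice were induced for 2 days, and per the methods doxycycline was given in the food. No source used here says outright whether the wild-type mice were fed doxycycline as well, and if they were not, the drug and the transgenes cannot be told apart. No source used here gives the age or sex of the mice, or says whether a library pooled several animals.

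The chromatin came from whole liver, and R26-rtTA is not restricted to hepatocytes, so a different share of cell types and a different acetylation per cell cannot be told apart in these lists. Each antibody and genotype was 1 library, so no value below has a replicate error and no difference between genotypes was tested. Intervals given with shares are Wilson 95% intervals, which cover the counting of regions or peaks only. Positions are in the mm9 build. No annotation of that build was used, so regions are named by position, and liver marker genes were not checked.

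H3K27ac is laid down by the CBP family of acetyltransferases, and transcription factors and coactivators bring these enzymes to promoters and enhancers. H3K4me3 marks promoters, and H3K4me1 marks enhancers and the flanks of promoters, so the 2 methyl marks say what kind of element an acetylated region covers. Myc binds E-box sequences, mainly in promoters that are already open. YAP has no DNA-binding domain and reaches chromatin mostly through TEAD proteins, many of whose sites lie in enhancers. In mature liver the Hippo pathway holds YAP largely inactive, and hepatocytes rarely divide.

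A list had 2 layers. The outer region was the broad stretch passing a lenient cutoff, and inner blocks were the stretches within it that passed a stricter one. The number of reads behind the acetylation lists is unknown, and the header of the wild-type list names another processing run than that of tet-Myc/YAP, so genotype and run cannot be told apart. The lists of bound factors rested in tet-Myc/YAP on 16.9 M (Myc), 17.4 M (YAP), 32.6 M (TEAD) and 45.8 M (RNA polymerase II) ChIP tags, and in wild-type on 33.1 M (TEAD) and 20.9 M (RNA polymerase II). The wild-type Myc list had a median peak width of 81 bp, against 749 bp in tet-Myc/YAP, and was not used to call Myc new at a region.

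The first question was how many acetylated regions were found in both livers. A region was kept where it overlapped a region of the other list by 1 bp or more, gained where a tet-Myc/YAP region met no wild-type one, and lost where a wild-type region met no tet-Myc/YAP one. Of the tet-Myc/YAP regions 17946 were kept and 3908, 17.9% (17.4 to 18.4%), were gained. Of the wild-type regions 15948 were kept and 1873, 10.5% (10.07 to 10.97%), were lost. These 2 shares are also the background for every count of gained and lost regions that follows. Most of the acetylated landscape was therefore present in both lists, and more regions were gained than lost as the lists stand. This order depended on the length of the lists: with tet-Myc/YAP cut to its 17821 highest-scoring regions, the number of wild-type ones, 1924 were gained and 3305 lost.

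Gained and lost regions were small and weak members of their lists. The median width was 3746.5 bp in gained regions against 6738 bp in kept tet-Myc/YAP regions, and 5746 bp in lost regions against 8667 bp in kept wild-type regions. A single inner block was found in 80.3% of gained and 71.9% of lost regions, against 53.7% and 43.5% of kept ones. On the score deposited with each region, the median gained region ranked at the 18.04th percentile of its list and the median lost region at the 15.5th. Both kinds thus sat low in their list, and of them all 1 gained region was in the top 10% by score. In the higher-scoring 50% of each list, 247 regions were gained and 107 lost. Gained regions were not the edges of wild-type ones, as the median distance to the nearest wild-type region was 23.8 kb, and 7 of them lay within 1 kb of one. For lost regions the median distance was 19.4 kb, with 2 within 1 kb.

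**Figure D1:**
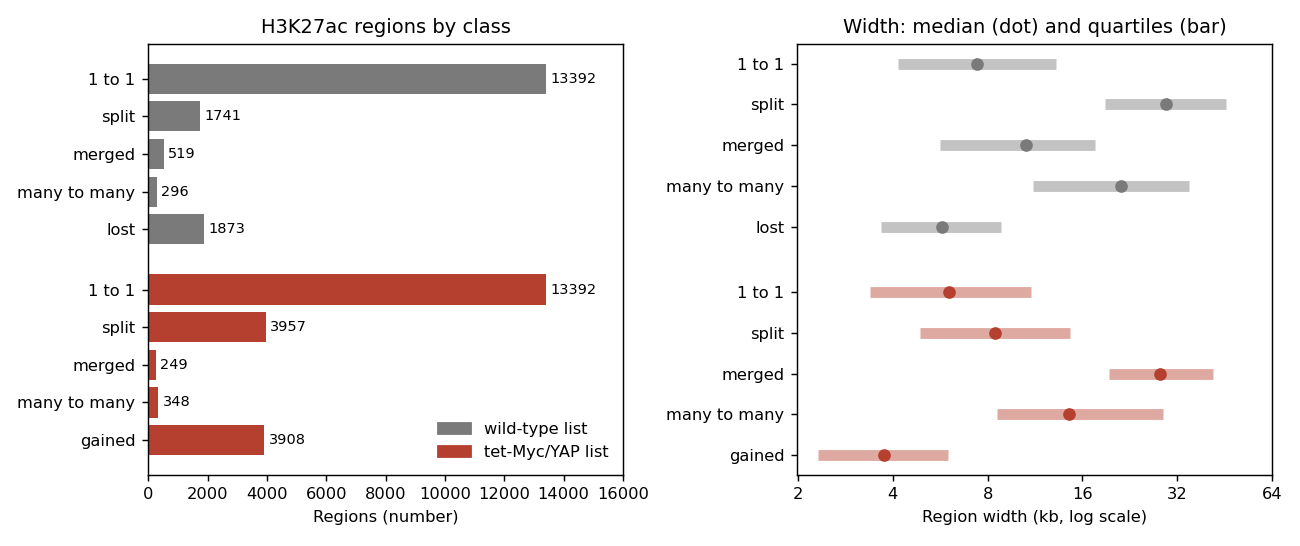
Number of H3K27ac regions in each class (left, bars from 0) and their widths in kb on a log scale (right, dot for the median, bar for the quartiles), with the wild-type list in grey and the tet-Myc/YAP list in red, 1 library each. The 13392 pairs of 1 to 1 regions make up most of both lists, split wild-type regions are wide with a median of 29560 bp, and gained regions are the narrowest class with a median of 3746.5 bp.

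Kept regions were mostly matched 1 to 1. Pairs of that kind numbered 13392, while 1741 wild-type regions were each split into 2 or more regions, 3957 in all, and 519 wild-type regions were merged into 249. A further 296 wild-type and 348 tet-Myc/YAP regions were linked in 140 groups with several regions on both sides. Splits were thus far more frequent than mergers. In 1388 of the split regions there were 2 pieces, and the most was 8. Split wild-type regions were wide, with a median of 29560 bp and 5 inner blocks, and 30.0% of them were in the top 10% of their list by score.

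The gaps in split regions lay mostly between the inner blocks of wild-type, in the weaker part of the mark. They numbered 2216 with a median width of 2803 bp, and 415 of them, 18.7%, held a wild-type inner block. Inner blocks made up 3.05% of the bases in these gaps, against 36.2% of the bases in split wild-type regions as a whole. Few factor summits fell into them: 5.19% of gaps held a TEAD summit of tet-Myc/YAP, 1.17% a Myc summit and 0.0451%, a single gap, a YAP summit. An RNA polymerase II summit was found in 23.6% of the gaps, and wild-type H3K4me1 in 75.5%. The 270 wild-type gaps bridged by merged regions were of like width, with a median of 2857.5 bp, and 21.1% held a tet-Myc/YAP inner block. Summits of tet-Myc/YAP were few there too, with TEAD in 10.4%, Myc in 5.56% and YAP in 1.11%. TEAD of wild-type was in 2.89% of the gaps in split regions and in 2.96% of the bridged ones. Shares in other stretches of like width were not taken.

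The next question was whether the acetylated area differed in the same way at its core and in its flanks. Outer regions covered 231 Mb in wild-type and 201 Mb in tet-Myc/YAP, a ratio of 0.870, whereas inner blocks covered 78.6 Mb and 77.8 Mb, a ratio of 0.990. Inner blocks thus took 34.0% of the covered bases in wild-type and 38.6% in tet-Myc/YAP. The smaller coverage lay almost wholly in the flanks, outside inner blocks. Of the bases found in wild-type alone, 50.6 Mb lay in regions that were kept and 12.9 Mb in lost regions. Of those found in tet-Myc/YAP alone, 18.5 Mb lay in gained regions and 14.9 Mb in kept ones. Bases in both lists came to 168 Mb, which is 72.6% of the wild-type and 83.4% of the tet-Myc/YAP coverage.

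Inner blocks covered alike totals but not the same bases. Bases inside inner blocks of both lists came to 59.1 Mb, 75.2% of the wild-type and 75.9% of the tet-Myc/YAP inner bases. A further 13.7 Mb were inner in tet-Myc/YAP but flank in wild-type, and 15.8 Mb the reverse. Inner bases of tet-Myc/YAP that no wild-type region covered came to 5.07 Mb, of which 4.40 Mb were in gained regions. Counted as blocks, 31450 of the 41819 tet-Myc/YAP inner blocks met a wild-type inner block, 5063 (12.1%) were new within a wild-type region and 4877 (11.7%) lay in gained regions. Of the 43721 wild-type inner blocks, 5372 (12.3%) had no counterpart although a tet-Myc/YAP region still covered the place. These unmatched blocks were short, with medians of 617 bp and 703 bp, against 1587 bp for tet-Myc/YAP blocks found in both.

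Factor summits of tet-Myc/YAP were densest in the inner blocks of tet-Myc/YAP. YAP summits stood at 160 per Mb in bases inner in both lists, at 83.5 per Mb in bases that were flank in wild-type and inner in tet-Myc/YAP, at 54.2 per Mb in inner bases outside any wild-type region, and at 4.56 per Mb in bases that were inner in wild-type and flank in tet-Myc/YAP. The bases that were inner in tet-Myc/YAP alone were thus richer in YAP than those inner in wild-type alone. Myc summits gave 350, 252, 291 and 26.3 per Mb in the same 4 states, and TEAD summits of tet-Myc/YAP 398, 416, 356 and 89.4 per Mb. For TEAD of wild-type liver, a list made from 33.1 M tags, the densities were 333, 200, 180 and 64.6 per Mb. Wild-type TEAD was therefore also denser in flank that was inner in tet-Myc/YAP (200 per Mb) than in inner bases that were flank there (64.6 per Mb), although that list comes from mice without the transgenes. RNA polymerase II summits stood at 368, 266, 227 and 103 per Mb in tet-Myc/YAP and at 320, 104, 78.3 and 80.9 per Mb in wild-type, from libraries of unequal depth. Bases inner in wild-type and outside any tet-Myc/YAP region came to 3.71 Mb. They had 9.16 YAP, 31.5 Myc and 100 TEAD summits of tet-Myc/YAP per Mb, and 135 TEAD summits of wild-type. RNA polymerase II stood there at 72.5 per Mb in tet-Myc/YAP and 88.9 per Mb in wild-type.

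**Figure D2:**
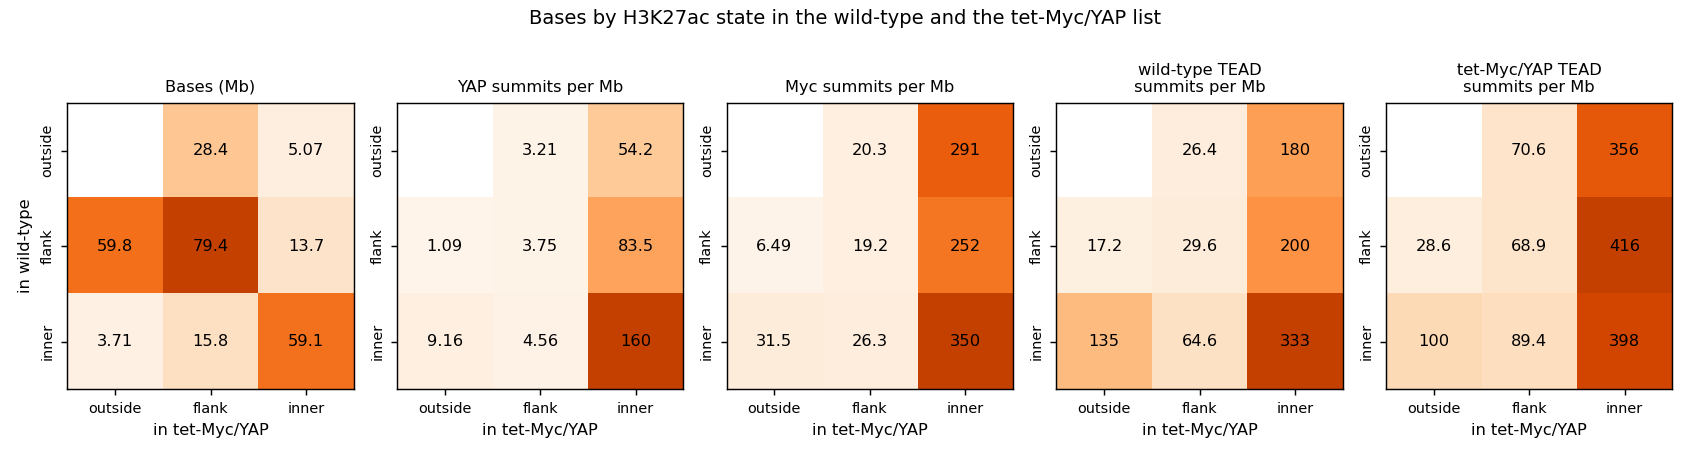
Each grid divides the bases by their H3K27ac state in wild-type (rows) and in tet-Myc/YAP (columns), outside any region, in a flank or in an inner block, with Mb in the first grid and factor summits per Mb in the others; the bases outside both lists have no value. Myc, YAP and tet-Myc/YAP TEAD densities are high throughout the inner column of tet-Myc/YAP, with 83.5 YAP summits per Mb in wild-type flank that was inner in tet-Myc/YAP against 4.56 in the reverse state.

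Among the 13392 pairs of 1 to 1 regions, the tet-Myc/YAP region was narrower in 67.2%. The median width was 7416 bp in wild-type and 6012.5 bp in tet-Myc/YAP, and the median ratio of the 2 widths was 0.896, with quartiles of 0.676 and 1.06. Over all widths, bases in inner blocks did not follow, with a median ratio of 1.03 and 53.8% of pairs larger in tet-Myc/YAP. This differed with width, as the median inner ratio was 1.27 in wild-type regions under 2 kb. In those of 16 kb or more it was 0.922, with 40.2% of pairs larger, so inner bases were smaller there too. Both edges of the tet-Myc/YAP region lay inside the wild-type one in 5907 pairs (44.1%) and outside it in 2185 (16.3%). A change of 2 times or more was uncommon: 366 pairs (2.73%) were wider and 1619 (12.1%) narrower by that much, and inner bases were larger in 1359 (10.1%) and smaller in 950 (7.09%).

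The ratio differed with the factors found in the wild-type region. In the 5899 pairs whose wild-type region held YAP, Myc and TEAD summits of tet-Myc/YAP the median width ratio was 0.915, in the 4222 with Myc and TEAD but no YAP 0.898, in the 483 with Myc alone 0.918, in the 1495 with TEAD alone 0.839, in the 236 with YAP but no Myc 0.818 and in the 955 with none of the 3 factors 0.851. The share of pairs with more inner bases in tet-Myc/YAP was 54.4%, 58.4%, 57.3%, 43.6%, 43.6% and 46.0% in that order. Each of these classes with Myc thus had a median ratio nearer 1, and more often a larger inner part, than each class without Myc, whether or not TEAD or YAP was there. The wild-type score differed as well, with a median at percentile 68.9 with YAP, Myc and TEAD and at percentile 18.2 with none of them, and the part of signal strength in these ratios was not tested.

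The difference was wider among wide regions. In wild-type regions of 16 kb or more the median width ratio was 0.895 with YAP, Myc and TEAD (n = 1554), 0.775 with Myc and TEAD (n = 564), 0.567 with TEAD alone (n = 163) and 0.601 with none of them (n = 78). In regions under 2 kb all 4 ratios were above 1, from 1.09 to 1.14, and in regions of 2 to 4 kb they ran from 0.934 to 0.980. Wide regions without Myc or YAP thus had the lowest ratios. The classes were set by the wild-type width, so each ratio also carries the error of that width.

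**Figure D3:**
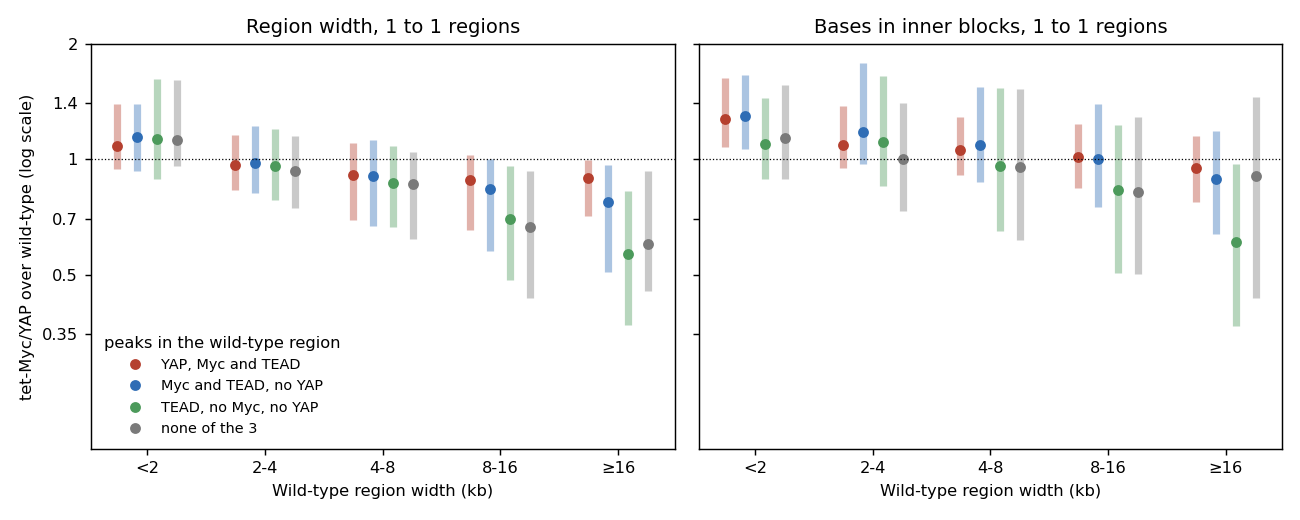
Ratio of tet-Myc/YAP over wild-type (log axis) for region width (left) and bases in inner blocks (right) in 1 to 1 pairs, by the width of the wild-type region in kb and the tet-Myc/YAP summits it held; dots are medians, bars are quartiles and the dotted line is a ratio of 1. In regions of 16 kb or more the median width ratio is 0.895 with YAP, Myc and TEAD and 0.567 with TEAD alone, while the groups lie close together under 4 kb.

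YAP, Myc, TEAD and RNA polymerase II were also mapped in tet-Myc/YAP liver, so the peaks held by each class were counted. No wild-type YAP list was among those used. YAP peaks were found in 45.6% (44.9 to 46.3%) of kept tet-Myc/YAP regions, 8.47% (7.64 to 9.38%) of gained regions and 4.32% (3.49 to 5.34%) of lost regions. Myc peaks were in 78.9% (78.3 to 79.5%), 42.3% (40.7 to 43.8%) and 15.2% (13.7 to 16.9%). TEAD peaks were in 88.0% (87.6 to 88.5%), 64.8% (63.3 to 66.3%) and 45.4% (43.2 to 47.7%). In this order of kept, gained and lost, each of the 3 factors became scarcer. RNA polymerase II peaks of tet-Myc/YAP were in 75.2%, 32.7% and 14.1% of the same regions. Kept regions of the wild-type list, the counterpart of lost ones, had YAP in 49.0%, Myc in 81.8%, TEAD in 89.8% and RNA polymerase II in 77.7%. Merged tet-Myc/YAP regions, a wide class, held the most: 70.3% had YAP, 97.2% Myc and 99.2% TEAD.

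YAP, Myc and TEAD were found together in 43.4% of kept, 7.01% of gained and 1.92% of lost regions. Gained regions more often had Myc and TEAD without YAP (28.3%) or TEAD alone (28.2%). None of the 3 factors was found in 7.78% of kept, 28.2% of gained and 50.2% of lost regions. Binding of YAP was thus rare in gained regions, and just 145 of the 3908 had peaks of all 3 factors and of RNA polymerase II. Low YAP was not particular to gained regions, as weak kept tet-Myc/YAP regions had little of it too. YAP was in 5.87% of those listed in tet-Myc but not tet-YAP, 11.4% of the reverse and 8.06% of those in neither. Their median scores were at percentiles 18.5, 12.7 and 9.75. Seen from the peaks, 93.8% of the 11719 YAP peaks lay in kept regions and 2.86% in gained ones, while 86.6% and 6.06% of the 30327 Myc peaks and 70.1% and 6.12% of the 52392 TEAD peaks did so. The median fold enrichment of TEAD peaks was 8.98 in gained, 8.19 in kept and 6.79 in lost regions, and that of Myc peaks was 9.25 in gained and 10.79 in kept ones.

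**Figure D4:**
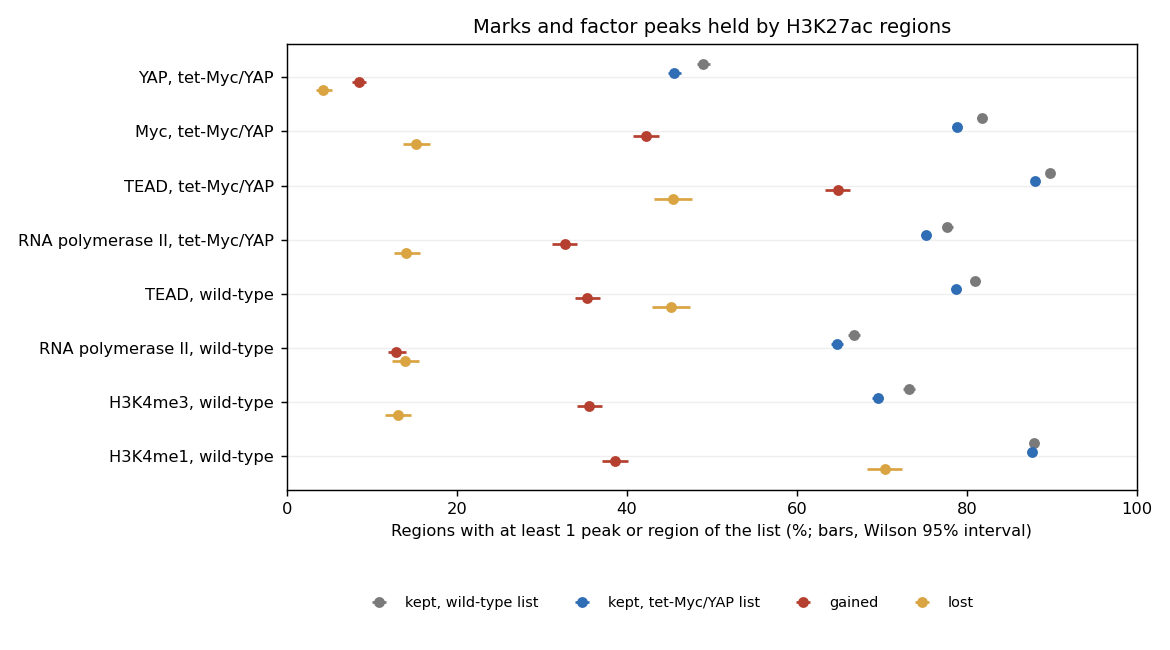
Share of H3K27ac regions in percent (dots, with Wilson 95% intervals for counting as bars) that hold at least 1 peak or region of the list named at the left, for kept regions of the wild-type (grey) and tet-Myc/YAP list (blue), gained regions (red) and lost regions (yellow). Gained and lost regions lie below kept ones for all 8 lists, and lost regions exceed gained ones for wild-type H3K4me1 (70.4% against 38.6%) and wild-type TEAD (45.2% against 35.4%), and are close to them for wild-type RNA polymerase II (13.9% against 12.9%).

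Wide regions have more room for a peak, so the shares were also taken within classes of width. Among tet-Myc/YAP regions of 2 to 4 kb, YAP was in 37.7% of kept and 6.83% of gained ones, Myc in 74.8% and 38.9%, TEAD in 81.7% and 61.1% and RNA polymerase II in 71.6% and 30.2%. In regions of 8 to 16 kb the pairs were 46.9% and 8.93%, 80.9% and 42.1%, 91.5% and 74.2%, and 76.8% and 35.1%. Kept regions were thus ahead of gained ones at equal width for each of these factors. Score was not matched, with a median at percentile 58.3 in kept and 18.04 in gained regions. The 596 kept regions also listed in tet-Myc but not in tet-YAP had a median at percentile 18.5. They held YAP in 5.87%, Myc in 47.1%, TEAD in 74.7% and RNA polymerase II in 29.4%. The 1045 gained regions listed in tet-Myc but not in tet-YAP had a median at percentile 18.04. Their shares were 7.56%, 45.6%, 67.8% and 29.0% in the same order. The shares in all gained regions were 8.47%, 42.3%, 64.8% and 32.7%. The part of score in these differences was not tested. The class of 16 kb or more held 52 gained regions, of which 13 had YAP.

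**Figure D5:**
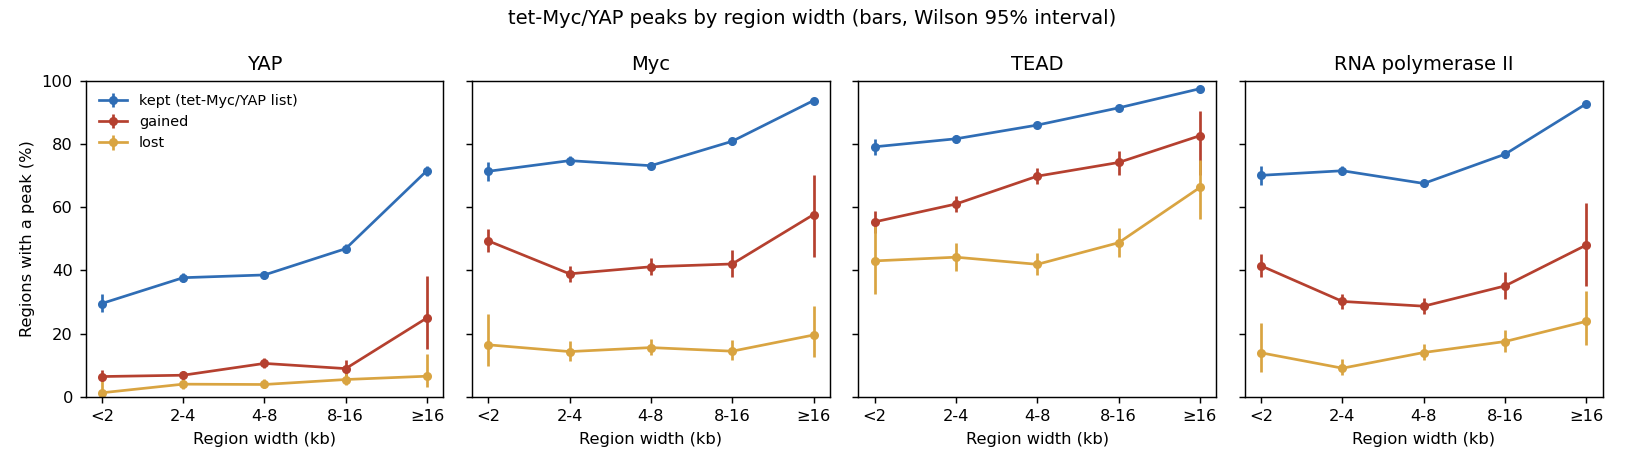
Share of regions in percent with a tet-Myc/YAP peak of YAP, Myc, TEAD or RNA polymerase II, by region width in kb, for kept tet-Myc/YAP regions (blue), gained regions (red) and lost wild-type regions (yellow), with Wilson 95% intervals for counting as bars. The blue line lies above the red one in each width class of each panel, for YAP with 37.7% against 6.83% at 2 to 4 kb.

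Wild-type methyl marks told what kind of element the gained and lost regions were in the liver without transgenes. Lost regions were mainly enhancer-like: 63.2% (61.0 to 65.4%) had H3K4me1 without H3K4me3, 23.7% had neither mark, and 13.1% had H3K4me3. In kept wild-type regions H3K4me1 without H3K4me3 was found in 23.1%, neither mark in 3.70% and H3K4me3 in 73.2%. Score was not matched, with a median at percentile 15.5 in lost and 54.8 in kept wild-type regions. Weak kept wild-type regions also had little H3K4me3. It was in 26.3% of the 491 listed in tet-Myc but not tet-YAP, with a median at percentile 16.2. In the 241 listed in tet-YAP but not tet-Myc, at percentile 13.4, it was in 22.4%. The part of score in this difference was not tested. Gained regions were mixed, with neither mark in 35.1% (33.6 to 36.6%), H3K4me1 alone in 29.3%, H3K4me3 alone in 26.3% and both in 9.29%. Kept tet-Myc/YAP regions had both marks in 61.5%, neither in 4.40% and H3K4me1 alone in 26.1%, close to the share in gained ones. H3K4me3 without H3K4me1 was thus more frequent among gained regions than among kept ones (7.99%), and these gained regions were narrow, with a median of 2456 bp.

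The difference between gained and kept regions in the factors they held depended on these marks. Where wild-type liver had H3K4me1 alone, TEAD was in 83.2% (81.0 to 85.3%) of gained and 85.5% (84.5 to 86.5%) of kept regions, Myc in 50.3% and 61.0%, and YAP in 12.9% and 23.3%. Where it had neither mark, gained regions held more TEAD than kept ones, 57.2% (54.5 to 59.8%) against 46.1% (42.6 to 49.6%), and more Myc, 23.4% against 15.6%, with YAP at 4.01% and 3.80%. Where it had H3K4me3 alone, TEAD was in 50.5% (47.5 to 53.6%) and 70.3% (67.8 to 72.6%) and Myc in 47.4% and 60.4%, and where it had both marks, TEAD was in 76.0% and 94.4% and Myc in 73.6% and 93.4%. Kept regions were thus ahead in TEAD of tet-Myc/YAP at places with H3K4me3. For that list the intervals overlapped at places with H3K4me1 alone, and the order was turned at places with neither mark. TEAD of wild-type was less frequent in gained than in kept regions at these places too. It was in 48.5% against 70.0% with H3K4me1 alone and in 24.1% against 35.2% with neither mark.

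In a small part of gained and lost regions H3K4me3 was found in one genotype alone, mostly the one that had the acetylation. Of gained regions 34.3% had H3K4me3 in both genotypes, 6.42% in tet-Myc/YAP alone and 1.33% in wild-type alone, against 66.4%, 2.93% and 3.12% of kept tet-Myc/YAP regions. Of lost regions 6.62% had it in both, 6.46% in wild-type alone and 0.854% in tet-Myc/YAP alone, against 70.5%, 2.67% and 2.91% of kept wild-type regions. Among regions without wild-type H3K4me3, tet-Myc/YAP had it in 9.98% of gained and 9.62% of kept ones, with overlapping intervals. Gained acetylation thus lay more often on H3K4me3 that was present in both livers than on H3K4me3 found in tet-Myc/YAP alone.

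TEAD and RNA polymerase II could be set beside their wild-type lists. In gained regions a TEAD peak was found in both genotypes in 33.7%, in tet-Myc/YAP alone in 31.1% (1215 regions) and in wild-type alone in 1.64%. In kept tet-Myc/YAP regions the shares were 76.1%, 11.95% and 2.63%, and in lost regions 32.6%, 12.9% and 12.6%. Wild-type TEAD was thus far more frequent in kept regions, which leaves fewer of them for a peak of tet-Myc/YAP alone. Among regions without a wild-type TEAD peak, tet-Myc/YAP had one in 1215 of 2526 gained regions, 48.1% (46.2 to 50.05%), and in 2145 of 3818 kept regions, 56.2% (54.6 to 57.7%), so the share was lower in gained ones. In lost regions TEAD peaks of one genotype alone were about as frequent both ways. The 2 TEAD libraries had like tag numbers, but the tet-Myc/YAP list held 52392 peaks against 33417 in wild-type. RNA polymerase II was in tet-Myc/YAP alone in 20.7% of gained and 12.9% of kept regions, and in wild-type alone in 0.844% and 2.40%. Among regions without wild-type RNA polymerase II, tet-Myc/YAP had it in 23.7% of gained and 36.6% of kept ones. These RNA polymerase II shares come from 45.8 M tags against 20.9 M, and the part of depth in them was not tested.

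Single regions were picked as the extremes of their class, and their values need not be typical of it. The 3 gained regions of highest score ranked at percentiles 90.1, 88.3 and 88.1, against a median of 18.04 for gained regions. The gained region with the highest score, at chr1:189130214-189143553, was 13340 bp wide with 3 inner blocks. It held 2 TEAD peaks of tet-Myc/YAP, the stronger of them 13.9-fold enriched, 1 Myc peak and 1 RNA polymerase II peak, with no TEAD or RNA polymerase II peak listed there in wild-type. A wild-type H3K4me1 region covered the place without H3K4me3. The second, at chr12:111655129-111670712, had 2 Myc and 2 TEAD peaks, and its top TEAD fold was 22.8 in tet-Myc/YAP against 4.71 in wild-type. The third, at chr1:39242841-39252229, lay on H3K4me3 of both genotypes and had a TEAD fold of 57.9 against 7.06, a Myc fold of 21.0 and a YAP fold of 6.21. All 3 had TEAD in tet-Myc/YAP, and 1 of them had YAP.

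Gained regions with YAP, Myc, TEAD and RNA polymerase II were ranked by their YAP peak. At chr11:80629204-80635471 the YAP fold was 13.1, and TEAD had a fold of 70.4 in tet-Myc/YAP and already 48.1 in wild-type, with neither methyl mark in wild-type. At chr8:37242301-37257016 the YAP fold was 13.9 and the TEAD fold 67.3 against 19.2, and at chr8:26383938-26387742 they were 13.3 and 50.6 against 41.2. Each of these 3 places thus had a TEAD peak of at least 19.2-fold in wild-type liver without an acetylated region. Folds of 2 libraries rest on their own controls and are given side by side only.

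Lost regions of high score had H3K4me1 but no H3K4me3 in wild-type. The first, at chr10:28364392-28374345, spanned 9954 bp with 2 inner blocks, and its 2 TEAD peaks were present in both genotypes with top folds of 5.14 in wild-type and 6.59 in tet-Myc/YAP. The second, at chr6:140510114-140526187, held a single TEAD peak in either genotype, 2 peaks of RNA polymerase II in either, and 1 Myc peak in tet-Myc/YAP. The third, at chr3:10038366-10044982, had 1 TEAD peak in tet-Myc/YAP with a fold of 5.39. At these 3 places TEAD was listed in tet-Myc/YAP although no acetylated region was, and no YAP peak was found.

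The split regions of highest score were very broad domains full of factor peaks. At chr15:58755789-58924748 a wild-type domain of 168960 bp became 2 regions of together 145563 bp, with 36 TEAD, 22 Myc and 8 YAP peaks of tet-Myc/YAP in it. At chr6:31015137-31177695 a domain of 162559 bp became 3 regions, and its inner bases were 98778 bp in wild-type and 67688 bp in tet-Myc/YAP. At chr7:133785486-133840813 the widths were 55328 bp and 52394 bp. The pieces thus covered most of each domain. Merged regions were of similar kind: at chr9:102610698-102689088, 2 wild-type regions of 43690 bp in all became 1 of 78391 bp, with inner bases of 24562 bp and 47997 bp, 20 TEAD, 11 Myc and 8 YAP peaks. At chr2:27403253-27503484 and chr8:126753996-126821013 the merged regions were 100232 bp and 67018 bp wide, from 98413 bp and 58761 bp.

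Among 1 to 1 pairs the highest-scoring region, at chr5:123581611-123596215, was 24679 bp wide in wild-type and 14605 bp in tet-Myc/YAP, with inner bases of 11493 bp and 11531 bp. The total of inner bases was thus alike there, in 4 blocks in wild-type and 3 in tet-Myc/YAP. The next regions by score, at chr10:80114807-80150774 and chr7:29155177-29172457, had width ratios of 0.998 and 0.935. The largest width ratio, 10.6, was at chr11:112569958-112606488, where 3460 bp in wild-type stood against 36531 bp with 5 Myc, 5 TEAD and 3 YAP peaks, and where H3K4me3 was listed in tet-Myc/YAP but not in wild-type. The next were at chr2:90948211-90956389 (8.26) and chr13:108677232-108695585 (7.94), and each of these 3 had Myc and TEAD peaks in tet-Myc/YAP. The smallest ratios, 0.0411, 0.0516 and 0.0627, were at chr4:60685451-60686609, chr3:18351893-18353369 and chr1:153117284-153118932, where wild-type regions of 28189 bp, 28647 bp and 26313 bp stood against 1159 bp, 1477 bp and 1649 bp. The first of these held no YAP, Myc or TEAD peak of tet-Myc/YAP and no Myc or TEAD peak of wild-type. In tet-Myc/YAP the second held TEAD alone, and the third 1 peak each of YAP, Myc and TEAD.

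Chromosome X stood apart in the share of gained regions. On X there were 319 wild-type and 492 tet-Myc/YAP regions, and 171 of the latter, 34.8% (30.7 to 39.1%), were gained, against 15.2 to 19.9% on the single autosomes. The share lost on X, 8.15%, lay within the autosomal range of 7.73 to 14.5%. Gained regions on X had wild-type H3K4me3 in 63.2% (55.7 to 70.0%) and wild-type H3K4me1 in 11.1%, against 34.4% and 39.9% on autosomes, so they were largely promoter-like. YAP was in 2.34% of them and RNA polymerase II in 51.5%. X as a whole held 0.946% of the wild-type H3K4me1 regions, against 2.68% of the H3K4me3 and 1.79% of the H3K27ac regions. It also held 36 of the 11719 YAP peaks, 0.307%. Shares in kept X regions were not taken, so low H3K4me1 and YAP are not shown to be particular to gained ones. All 4 acetylation lists had 3 regions on chromosome Y. Of the X regions in tet-Myc and tet-YAP, 33.5% and 25.4% had no wild-type region, and these comparisons share the wild-type list and its separate processing run.

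The liver of the single transgenic mice, R26-rtTA;tet-Myc and R26-rtTA;tet-YAP, was compared with the same wild-type list, so the 3 comparisons are not independent. The headers of the 3 transgenic lists name the same processing run, and that of wild-type another. Regions gained or lost in all 3 thus cannot be told apart from a difference between the runs. In tet-Myc 3442 of 20524 regions (16.8%) were gained and 1317 wild-type regions (7.39%) lost, and in tet-YAP 3075 of 20347 (15.1%) were gained and 1397 (7.84%) lost. Beside the 1741 splits of tet-Myc/YAP there were 1045 in tet-Myc and 1128 in tet-YAP, and beside its median width ratio of 0.896 in 1 to 1 pairs there were ratios of 0.967 and 0.989. Lost regions, splits and narrowing were thus more frequent in tet-Myc/YAP than in either single transgenic, with 1 library each and no test. Of the regions gained in tet-Myc/YAP, 1465 (37.5%) were also listed in both single transgenics, 1045 (26.7%) in tet-Myc alone, 478 (12.2%) in tet-YAP alone and 920 (23.5%) in neither. The 920 were weaker still, with a median score at the 11.4th percentile, and 3.26% of them had YAP, 32.8% Myc and 66.3% TEAD. Of kept tet-Myc/YAP regions 94.7% were listed in both single transgenics, 3.32% in tet-Myc alone, 1.61% in tet-YAP alone and 0.345% in neither. Of the lost regions 512 (27.3%) were still listed in both single transgenics and 521 (27.8%) in neither. Kept wild-type regions were listed in both in 95.1% and in neither in 0.314%. Score was not matched between these classes.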

How the data were processed

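Peak lists of 23 of 24 mouse liver libraries entered the work, and the input library was not used here as it came without a list. The submitters' processing notes name BWA 0.6.2 and SAMtools for alignment to mm9 and MACS2 2.0.9 for the peaks, which were called library by library. The authors deposited 9 broad lists, each giving outer regions, their inner blocks and a score. The score has no stated scale and served as a rank within a list, and the sources used here do not give the cutoffs. The 14 narrow lists deposited by the authors hold, per the file headers, the pileup signal of each summit, its enrichment as a ratio or fold against the control, and −log10 values of p and q, at a p-value cutoff of 1.00e-05. The control of YAP in tet-Myc/YAP had 167 M tags.

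Regions were compared by overlap of 1 bp or more in Python 3.11.15 (pandas 2.3.3, numpy 2.4.6). The first and last block of each region, 1 bp end marks, were left out of inner blocks. The score percentile is the rank within a list, and Wilson intervals came from scipy 1.17.1. The code was tested on simulated data and recovered the planted classes and shared bases in 7 of 7 checks, and it gave the same 15948 and 17946 kept regions as bedtools 2.31.1. Figures were drawn with matplotlib 3.10.9. A summit had to lie in the bases for densities, gaps and 1 to 1 pairs, and any overlap counted elsewhere.

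Samples were grouped by antibody and genotype as the titles give them. The members and lists were chosen with earlier results of these data known. Named regions were the 3 of each class with the highest score, with ties broken by width and then position, the 3 with the largest and the 3 with the smallest width ratio, and the 3 gained regions with all 4 factors whose YAP peak had the highest −log10 q. Chromosomes Y and 18 were left out of that rule. The gene table at hand is of another build, so no coordinates were converted. Alternatives were a longer overlap, joined gaps, lists of equal length, the higher-scoring 50%, a minimum width, autosomes alone, stricter factor peaks, summits and width classes.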

Additional observations from a re-analysis of the deposited data

Results flagged for a closer look

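Inner blocks differed from wild-type in opposite directions in tet-Myc/YAP and in a single transgenic, and these differences were not tested, as each genotype was 1 library and all are set against the same wild-type list. The number of inner blocks over wild-type was 0.956 in tet-Myc/YAP and 1.17 in tet-YAP. Bases in inner blocks over wild-type were 0.990 in tet-Myc/YAP and 1.15 in tet-Myc, from 77.8 Mb and 90.4 Mb. The median ratio of inner bases in 1 to 1 pairs was 1.03 in tet-Myc/YAP and 0.931 in tet-YAP.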

How the results depend on the processing

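No paired analysis was possible because each group had 1 sample, and for the same reason no replicate could be left out. Of 30 recomputed counts, 24 stayed within 1.5 times the reported one. With lists of equal number, gained regions were 1924 and lost regions 3305, so their order turned, and the ratios of covered and inner bases were 0.783 and 0.948. In the higher-scoring 50%, 247 regions were gained, 107 lost, and 10697 tet-Myc/YAP and 8766 wild-type regions kept, by construction from fewer regions. With regions of 1 kb or more the 2 base ratios were 0.870 and 0.990. With factor peaks of −log10 q of 10 or more, YAP, Myc, TEAD and RNA polymerase II were in 3.48%, 34.2%, 57.8% and 28.0% of gained and 1.33%, 11.1%, 36.4% and 9.98% of lost regions. Weighted to the widths of kept regions, gained regions held YAP in 11.5%, Myc in 44.1%, TEAD in 70.4%, RNA polymerase II in 34.6%, H3K4me3 in 27.9% and H3K4me1 in 44.8%, and lost regions TEAD in 50.6%, RNA polymerase II in 16.7% and H3K4me1 in 73.3%. Gained and lost regions held each of the 4 factors less often than kept ones with these stronger peaks, and each factor and wild-type methyl mark less often with the weighting, but not in every part of the split by wild-type marks in the report. An alternative chosen after seeing the data, factor summits sought in the shared bases of a pair, gave width ratios of 0.895 with YAP, Myc and TEAD and 0.566 with TEAD alone in regions of 16 kb or more. As the depth of the acetylation lists is unknown, a region missing from a list does not show that the mark was absent.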
